A study of Mus musculus with 2 samples.

Results

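The cytosolic ribosomal protein genes were read in cultured primary mouse brain pericytes (PCs), in 1 single-cell RNA-seq library of passage 5 (PC5) and 1 of passage 20 (PC20). Members were taken by symbol, as Rps or Rpl with a number and an optional suffix letter, together with *Rpsa*, *Rplp0*, *Rplp1* and *Rplp2* and without pseudogenes, which gave 83 of the 31053 genes listed. Of these, 32 encode proteins of the small subunit and 51 of the large subunit, each counted with its paralogs. Both cultures were grown from the brains of female wild type C57BL/6N mice, 6 to 8 weeks old and pooled for an isolation, and no allele or agent set the groups apart. By the study's methods PC5 and PC20 came from separate isolations, while the deposited description speaks of only 1, so passage and isolation cannot be told apart. With 1 library per passage no test between passages could be made. All intervals given are 95% counting intervals of these libraries, which leave out the spread between cultures and between cells.

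The ribosome is built from a small subunit, which reads the messenger RNA, and a large subunit, which joins the amino acids, and each cytosolic ribosomal protein belongs to 1 of them. Since a ribosome holds its core proteins in fixed numbers, their genes are usually expressed together and at high level in growing and dividing cells. Their messages start with a run of pyrimidines, the 5' terminal oligopyrimidine (TOP) motif, through which the mTORC1 kinase and *Larp1* regulate translation. A few ribosomal proteins have paralogs that can take their place, and others act outside the ribosome, as *Rpl5* and *Rpl11* do when they bind the p53 regulator *Mdm2*.

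A barcode was kept as a cell if it held over 1000 genes and less than 20% of its UMIs (unique molecular identifiers, each counting 1 captured RNA molecule) were mitochondrial. This left 9950 of 10629 barcodes and 223054273 UMIs in PC5, and 4749 of 4884 barcodes and 191122251 UMIs in PC20. The libraries shared 20 barcodes. Levels are given as CPM, a gene's UMIs over all kept cells scaled to a library total of 1000000. A kept cell had a median of 21700 UMIs in PC5 and 33424 in PC20. Markers of the labelled cell type were low in CPM. Of 5 pericyte markers 2, *Pdgfrb* and *Cspg4*, were seen in 10% or more of the cells of a library, and the 5 summed to 53.9 CPM in PC5 and 8.53 in PC20. Most of this was *Pdgfrb*, in 54.2% of PC5 and 16.5% of PC20 cells, at 44.6 and 5.43 CPM. *Cspg4* was in 10.1% and 0.337% of cells, at 5.55 and 0.0994 CPM. *Rgs5* was at 405 UMIs against 0 (PC5 against PC20), and *Abcc9* had 1 in each. *Anpep* went the other way, with 431 UMIs against 573 and a log2 ratio of PC5 to PC20 of -0.63. The 4 fibroblast markers summed to 1302 CPM in PC5 and 101 in PC20, with *Lum* at 0 UMIs in PC20, and the 3 smooth muscle markers to 283 and 49.5 CPM. Most of the fibroblast sums came from *Col3a1*, at 1158 and 101 CPM. In the smooth muscle sums *Tagln* had 219 and 0.230 CPM, and *Acta2* had 62.8 and 49.2 CPM. *Pecam1*, the 1 endothelial marker, lay at 0.542 and 0.110 CPM, the 3 microglia markers summed to 0.520 and 0.0157 CPM with *Cd48* and *Adgre1* at 0, the 3 oligodendrocyte markers to 0.915 and 0.895 CPM with *Mobp* at 0, while the astrocyte markers lay on opposite sides, *Slc4a4* at 143 and 229 CPM and *Aldh1l1* at 7.35 and 0.0262 CPM. Most of these lists differed between the libraries, and their part in the results on ribosomal protein genes was not tested.

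The sequences that bear on the results are those of the annotated starts, since the members share a start motif. RefSeq start windows of GRCm38.p6, from 10 bases before the start to 20 from it on, were found for 63 members. The windows of the 4 members with the lowest and the 4 with the highest ratio of PC5 to PC20 are shown on the strand of the gene, with the longest run of C and T in capitals.
Rps6, chr4:86857348-86857377, - strand: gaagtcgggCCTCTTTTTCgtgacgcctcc
Rpl5, chr5:107900518-107900547, + strand: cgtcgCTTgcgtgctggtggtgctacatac
Rpl12, chr2:32961702-32961731, + strand: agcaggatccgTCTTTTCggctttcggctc
Rpl4, chr9:64173377-64173406, + strand: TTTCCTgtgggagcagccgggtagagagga
Rps28, chr17:33824543-33824572, - strand: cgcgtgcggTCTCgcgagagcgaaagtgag
Rpl41, chr10:128549149-128549178, - strand: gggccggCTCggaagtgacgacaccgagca
Rpl37a, chr1:72711250-72711279, + strand: CTCgccggtctaaaaccgcgcatgcgcatt
Rps27l, chr9:66946076-66946105, + strand: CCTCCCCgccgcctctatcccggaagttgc

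A run of at least 8 pyrimidines on the gene's strand stood in 22 of the 63 windows, 34.9%, against 11.1% of 19330 windows of other genes. The run of *Rps6* spanned the annotated start, and the other windows shown held none of that length. Annotated starts differed between RefSeq and GENCODE for many members, by 137 bases for *Rpl41*, so a window without the run says only that these letters were not in it. The median log2 ratio of PC5 to PC20 was 0.065 over the 22 detected members with it and -0.016 over the 38 detected members without it.

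As a whole, the members took up nearly the same share of the RNA at both passages. In PC5 73993872 UMIs, 33.2% of the total, came from the 83 genes, and in PC20 62840599 UMIs, 32.9%. Small subunit genes took 14.9% of UMIs in each library, and large subunit genes took 18.2% in PC5 and 18.0% in PC20. The ratio of small to large subunit UMIs was thus 0.820 in PC5 and 0.831 in PC20. The counting intervals of the family share did not overlap, at 33.17% to 33.18% in PC5 and 32.87% to 32.89% in PC20. But they treat UMIs as independent, and so carry no error of culture, library or sampling of cells.

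The single cells spread far more than the libraries differed. The members took a median of 33.0% of a cell's UMIs in PC5, with quartiles of 29.5% and 36.4%, and 31.9% in PC20, with quartiles of 29.4% and 34.9%. In both libraries the share was lower in cells richer in mitochondrial RNA. From the lowest to the highest quartile of cells by mitochondrial percentage the median share went from 36.1% to 31.1% in PC5 and from 35.4% to 29.9% in PC20. The median mitochondrial percentage of these quartiles went from 0.800% to 3.71% in PC5 and from 0.767% to 3.15% in PC20, and its part in the share was not tested.

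Cells with a UMI of *Mki67* or *Top2a*, markers of dividing cells, had a slightly lower share. To compare cells at 1 depth, each was thinned at random to 1 fixed number of UMIs, which left 8847 PC5 and 4474 PC20 cells and dropped 1103 and 275 shallower ones. Of the thinned cells 35.6% in PC5 and 57.6% in PC20 had such a UMI, and 45.0% and 72.2% of all kept cells. The median share was 32.0% in PC5 cells with such a UMI and 33.7% in those without, and 31.3% and 32.7% in PC20. Of 80 detected members 72 had a lower mean in cells with such a UMI than in those without in PC5 and 74 in PC20, by a median log2 difference of -0.072 and -0.056. The same count over all detected genes was not made, so whether this is particular to the members was not tested. In PC5 *Rpl7l1* stood apart from the other members. The log2 differences ranged from -0.20 to 0.25 in PC5, with the paralog *Rpl7l1* highest and *Rps27l* next at 0.071, and from -0.19 for *Rpl37a* to 0.029 for *Rpl23a* in PC20.

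Of the 83 members 80 were detected, that is, had a UMI in at least 10% of cells of either library, and 78 had one in over 99% of cells of both. A total of 75 lay above 1000 CPM in both libraries. The members left out were the paralogs *Rpl39l*, *Rpl3l* and *Rpl10l*. Levels were not divided by gene length, because the libraries count each message at its 3' end. The 5 highest members by mean CPM were *Rps20*, *Rpl41*, *Rpl13*, *Rps24* and *Rpl23*. *Rps20*, at the head of the small subunit, had 8147 CPM in PC5 and 9631 in PC20. *Rpl13* had 6682 and 8575 CPM, *Rps24* had 7494 and 7482 CPM, and *Rpl23* had 7296 and 7059 CPM. The 5 lowest of the detected members were *Rpl7l1*, *Rpl13a*, *Rpl27*, *Rpl5* and *Rpl4*. *Rpl13a*, a large subunit protein also known for silencing translation of inflammatory messages, had 236 CPM in PC5 and 371 in PC20, the lowest of any member that is no paralog. The order of the members by level was similar in the libraries, with a Spearman correlation of 0.81 over 80 genes, given as a description since genes are not independent.

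The individual members differed in both directions. As log2 of PC5 CPM over PC20 CPM, the 80 detected members had a median of -0.07, and 35 were higher in PC5 and 45 in PC20. Over all 10504 detected genes the median was -0.03. The members lay closer together than all detected genes, with a standard deviation of 0.50 against 1.89. Their quartiles, less open to extreme ratios, were -0.34 and 0.27, against -0.75 and 0.68 over all detected genes. A log2 ratio above 0.5 was seen in 12 members (15%), against 30.2% of all detected genes, and a ratio below -0.5 in 13 members (16.2%), against 32.7%. Past 1 in size there were 1 member higher in PC5 (1.25%; all detected genes 17.9%) and 3 higher in PC20 (3.75%; all detected genes 19.1%). Among the 1792 genes with at least 100 CPM in either library, which hold 79 members, the shares above 0.5, below -0.5, above 1 and below -1 were 33%, 33.1%, 19.6% and 21.3%. The members' shares were below the background in all 4 classes.

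**Figure D1:**
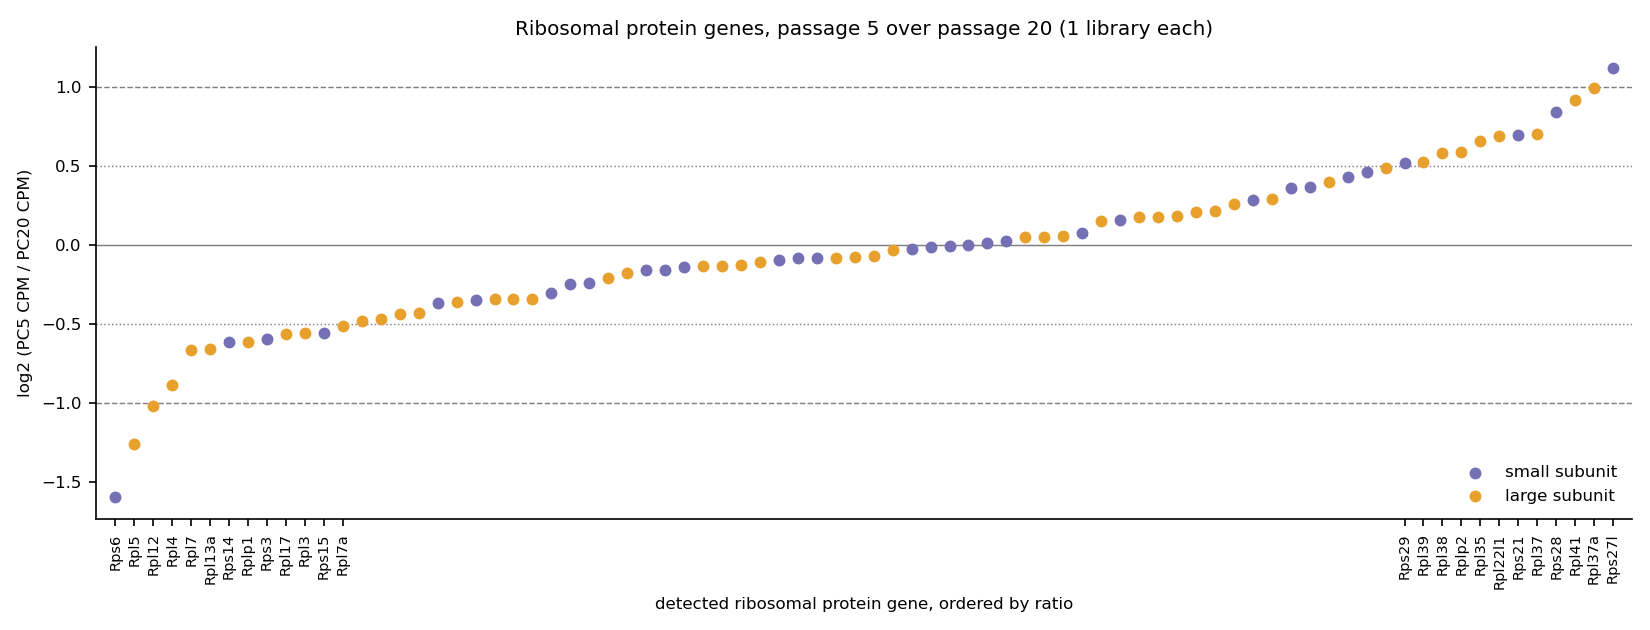
Each point is 1 of the 80 detected ribosomal protein genes, ordered along the horizontal axis by the log2 ratio of its CPM in PC5 to that in PC20 on the vertical axis, and coloured by subunit, with the symbols of those past 0.5 in size; dotted and dashed lines stand at 0.5 and 1 in size. Most points lie within the dotted lines, *Rps6* stands lowest at -1.59 and *Rps27l* highest at 1.12, and both subunits are found along the whole range.

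The largest difference of all was that of *Rps6*, the small subunit protein that S6 kinases phosphorylate downstream of mTORC1. Its level was 1157 CPM in PC5 and 3493 in PC20, 3.02-fold higher in PC20, with a log2 ratio of -1.59 (interval -1.60 to -1.59). Its mean in thinned cells was 12.4 UMIs in PC5 and 37.7 in PC20. No other small subunit gene came near it. *Rps14* had 3575 and 5464 CPM (log2 -0.61), *Rps3*, which lines the entry of the messenger RNA channel, had 3069 and 4626 CPM (-0.59), and *Rps15* had 1940 and 2855 CPM (-0.56). *Rpsa*, also known as a precursor of the laminin receptor, had 4852 and 6173 CPM, a log2 ratio of -0.35.

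In the large subunit *Rpl5*, which carries the 5S ribosomal RNA together with *Rpl11*, had 609 CPM in PC5 and 1459 in PC20 (log2 -1.26). Its partner *Rpl11* lay the other way, at 3632 and 3276 CPM (log2 0.15). The log2 ratios of these partners thus lay on either side of 0. *Rpl12*, at the base of the stalk that takes up elongation factors, had 2714 and 5495 CPM (log2 -1.02). The stalk itself was split. *Rplp0*, its foot, had 4281 and 5416 CPM (log2 -0.34), and *Rplp1* had 5665 and 8650 CPM (-0.61). *Rplp2*, with which *Rplp1* pairs in the stalk, had 5062 and 3371 CPM (0.59). The level of *Rplp1* was thus 1.12 times that of *Rplp2* in PC5 and 2.57 times in PC20, with the limit that *Rplp1* shares part of its 3' end with another listed gene.

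Among the other large subunit genes higher in PC20, *Rpl4* had 944 and 1744 CPM (log2 -0.89), *Rpl7* had 1499 and 2378 CPM (-0.67), and *Rpl13a*, given above, had a log2 ratio of -0.66. *Rpl3*, which reaches toward the site of peptide bond formation, had 2382 and 3509 CPM (-0.56), *Rpl17* had 2959 and 4365 CPM (-0.56), and *Rpl7a* had 1351 and 1924 CPM (-0.51). *Rpl7a* was the member just past the limit of -0.5, which it misses when centred on the median gene (-0.48), and *Rpl21*, with 2012 and 2800 CPM and a log2 ratio of -0.48, the one just short of it.

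Of the 12 members above 0.5, most encode very short proteins. *Rpl41* encodes the shortest of them, a peptide rich in basic residues, and had the highest level of any member in PC5, 11265 CPM, against 5961 in PC20 (log2 0.92). Its coding sequence of 75 bases without the stop codon lies in the gene at chr10:128548114-128549305 on the - strand of GRCm38. It is printed to show how short this coding sequence is, with the start codon in capitals.
Rpl41: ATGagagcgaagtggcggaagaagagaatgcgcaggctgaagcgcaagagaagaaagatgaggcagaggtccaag

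The zinc-binding large subunit proteins *Rpl37a* and *Rpl37* lay on the same side. *Rpl37a* had 6207 CPM in PC5 and 3122 in PC20 (log2 0.99), and *Rpl37* had 7059 and 4341 CPM (0.70). In the small subunit, *Rps28* had 7029 and 3919 CPM (0.84) and *Rps21* had 4982 and 3072 CPM (0.70). *Rpl35* followed with 3728 and 2359 CPM (0.66), *Rpl38* with 4547 and 3041 CPM (0.58), *Rpl39* with 7072 and 4913 CPM (0.53), and *Rps29* with 6470 and 4518 CPM (0.52). *Rps29* stood just past the limit of 0.5 and *Rpl27*, with 768 and 548 CPM (0.49), just short of it. The remaining members past that limit, *Rps27l* and *Rpl22l1*, are paralogs and are described with their pairs.

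Among the members nearest to a log2 ratio of 0 were the small subunit genes *Rps24* (0.0023), *Rps3a1* (-0.0083), *Rps2* (0.013) and *Rps13* (0.023). *Rps2* had 6534 CPM in PC5 and 6476 in PC20. In all, 35 members lay within 0.25 of 0. All detected genes were not counted at this limit, so whether the number is particular to the members was not tested.

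The ratios followed the length of the protein. Over the 80 detected members the log2 ratio was lower at larger coding length, the bases from start codon to the last codon before the stop, with a Pearson correlation of -0.64 and a Spearman correlation of -0.68. The points share 2 libraries and are a description. The same was seen in each subunit, with Spearman correlations of -0.48 over 32 small subunit and -0.74 over 48 large subunit members. All 10 members of at most 300 bases lay above 0, that is, higher in PC5. Their median was 0.70 and their lowest value, that of *Rps27*, 0.29. The 28 members of 301 to 450 bases had a median of 0.05, with 16 higher in PC5. The 19 members of 451 to 600 bases had a median of -0.13, with 7 higher in PC5. All 11 members of 601 to 750 bases were higher in PC20, with a median of -0.34, and 10 of 11 were when ratios were centred on the median gene, scaled to a total without mitochondrial and member genes, or taken in thinned cells or in cells without *Mki67* or *Top2a*. Of the 12 longer ones 10 were higher in PC20, with a median of -0.41, and *Rpl6* (0.26) and *Rps2* (0.013) were the exceptions. Within a library, the Spearman correlation of CPM with coding length was -0.44 in PC5 and -0.06 in PC20. For transcript length in place of coding length, the log2 ratio of the 80 members had correlations of -0.24 (Pearson) and -0.44 (Spearman). This length is that of the annotated transcript chosen for each gene, such as 5179 bases for *Rps15a* with 390 coding bases. Whether the cells made these transcripts was not tested.

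**Figure D2:**
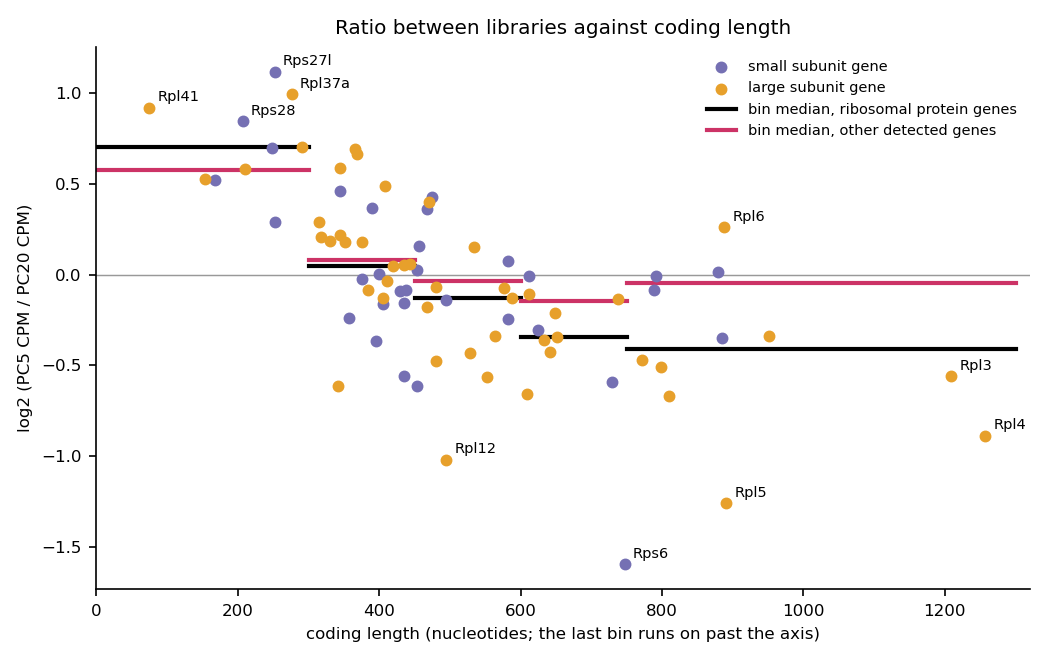
The log2 ratio of CPM in PC5 to CPM in PC20 (vertical axis) is plotted against coding length in nucleotides (horizontal axis), with 1 point for each of the 80 detected ribosomal protein genes; black lines are the medians of these genes within 5 length bins and red lines those of all other detected genes. The points run from the upper left (*Rpl41*, *Rps28*, *Rpl37a*) to the lower right (*Rpl4*, *Rpl5*), the black medians go from 0.70 to -0.41, and the red medians stand apart from 0 mainly in the first bin, at 0.57.

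Short genes outside the family lay on the same side. Of 225 other detected genes of at most 300 coding bases, 71.6% were higher in PC5 (median log2 ratio 0.57), and of the 110 of these with at least 100 CPM in either library 82.7% were, with a median of 0.85. In the other bins the medians of other genes lay between -0.15 and 0.08, and of those with at least 100 CPM between -0.23 and 0.03. Over the 10201 other genes with a length and UMIs in both libraries the Spearman correlation was 0.02. The 77 detected genes of mitochondrial ribosomal proteins, which are made in the cytosol for another ribosome, had a Spearman correlation of -0.63 and a median log2 ratio of -0.47. The relation to length was thus seen in members and in other short genes, and which property of the messages, cultures or libraries it goes with was not tested.

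Short and long members were also compared in the single cells of the libraries. Both sets follow the length relation, which was chosen after seeing the ratios, so a gap between the libraries was given in advance. For each cell the UMIs of 9 short members (at most 300 coding bases, paralogs left out) were set against those of 22 long ones (at least 600). In PC5 the short members took 5.82% and the long ones 6.96% of UMIs. In PC20 the short ones took 3.58% and the long ones 8.62%. The log2 of short over long had a median of -0.32 in PC5 cells, with 5% of cells below -0.65 and 5% above 0.52. In PC20 cells the median was -1.30, with 5% below -1.57 and 5% above -0.87. All 9950 PC5 cells lay above the PC20 median, and 8 of 4749 PC20 cells (0.168%) lay above the PC5 median. These counts describe the libraries only, since cells are not replicates of a passage. In thinned cells the medians were -0.33 and -1.30, a gap of like size.

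**Figure D3:**
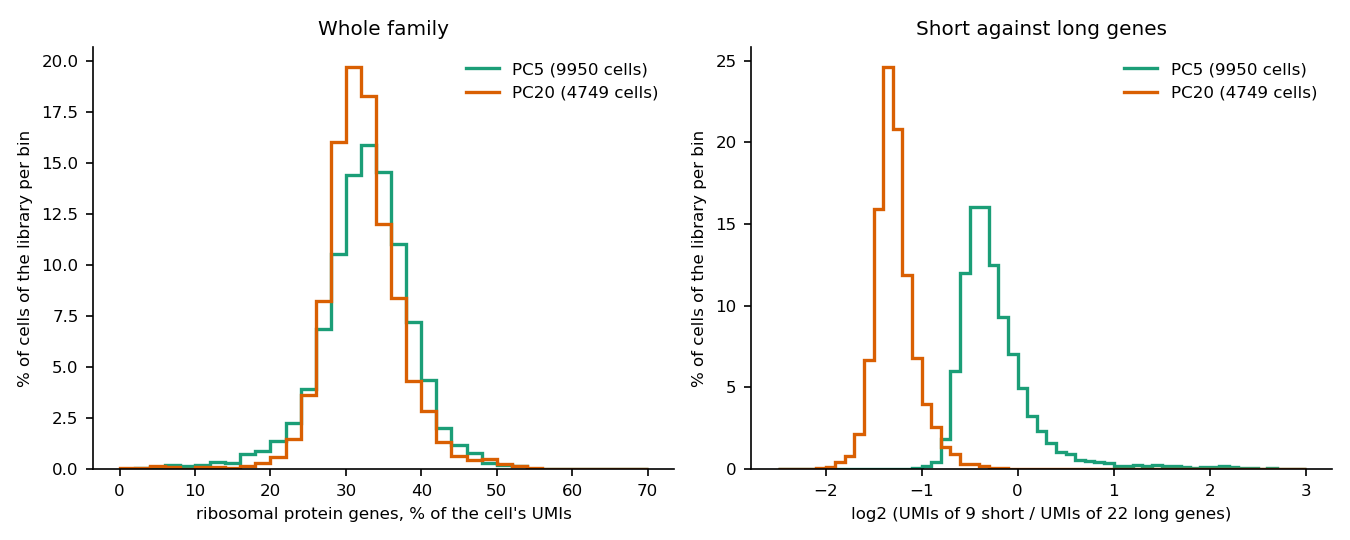
Histograms over cells show, on the left, the percentage of a cell's UMIs from the ribosomal protein genes and, on the right, the log2 ratio of UMIs of 9 short to 22 long members; the vertical axes give the percentage of a library's cells in each bin, for 9950 PC5 and 4749 PC20 cells, with the outermost values put in the end bins. The distributions of the family share lie over each other with medians of 33.0% and 31.9%, while those of the short to long ratio are centred on -0.32 and -1.30 and meet only in their tails.

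Within PC5 the short to long ratio was not the same in all cells. The quartile of PC5 cells with the least mitochondrial RNA, a median of 0.800% of UMIs, had a median ratio of -0.073, and the other quartiles lay between -0.39 and -0.34. In PC20 the quartiles lay between -1.31 and -1.29. By UMIs per cell, the quartiles went from -0.19 for the shallowest to -0.37 for the deepest in PC5, and from -1.24 to -1.33 in PC20. The medians of all quartiles of PC5 lay above those of all quartiles of PC20.

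The members also differed in how evenly cells expressed them. In thinned cells the spread beyond counting error, as a coefficient of variation, had a median over members of 25.3% in PC5 and 20.0% in PC20. In PC5 it was lowest for *Rps23* (16.9%) and highest for *Rps15* (38.5%), followed by *Rpl22l1* (38.2%), *Rpl37* (35.4%) and *Rps27l* (35.0%). In PC20 it was lowest for *Rpl10a* (15.8%) and highest for *Rps27l* (38.1%), *Rpl37a* (33.6%) and *Rpl22l1* (32.2%). The paralogs *Rps27l* and *Rpl22l1* were thus among the 4 most variable members in both libraries. Over the 80 members the Spearman correlation of this spread between libraries was 0.46.

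The paralog pairs begin with the pair of *Rps27l*. *Rps27l* and its main copy *Rps27*, a zinc-binding protein of the small subunit, have coding sequences of 252 bases that differ at 60 positions, an identity of 76.2%, and are printed from GENCODE M21 without the stop codon, with the differing bases in capitals. The genes lie at chr9:66946086-66949516 on the + strand (*Rps27l*) and chr3:90212522-90213651 on the - strand (*Rps27*) of GRCm38.
Rps27: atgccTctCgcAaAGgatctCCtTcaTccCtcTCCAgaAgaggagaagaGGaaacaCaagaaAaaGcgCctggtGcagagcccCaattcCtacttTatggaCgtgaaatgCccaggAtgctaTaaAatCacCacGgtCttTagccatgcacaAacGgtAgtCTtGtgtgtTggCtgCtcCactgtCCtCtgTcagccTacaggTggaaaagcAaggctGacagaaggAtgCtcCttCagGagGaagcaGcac
Rps27l: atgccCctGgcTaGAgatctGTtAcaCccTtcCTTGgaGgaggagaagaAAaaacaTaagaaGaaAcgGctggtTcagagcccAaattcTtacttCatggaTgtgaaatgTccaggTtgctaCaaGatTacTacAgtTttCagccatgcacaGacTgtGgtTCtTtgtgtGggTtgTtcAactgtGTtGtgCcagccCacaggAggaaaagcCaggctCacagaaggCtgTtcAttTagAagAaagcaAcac

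*Rps27l*, known as a target of p53, was the member with the highest ratio. It had 2195 CPM in PC5 and 1013 in PC20 (log2 1.12, interval 1.11 to 1.12), while *Rps27*, whose 3' end is shared with *Rps27rt*, had 3537 and 2899 CPM (log2 0.29). Its share of the UMIs of the pair was 38.3% in PC5 (38.2% to 38.4%, Clopper-Pearson) and 25.9% in PC20 (25.8% to 26.0%). In both libraries the share was higher in cells with more UMIs of *Cdkn1a*, another p53 target. In thinned cells with 0, 1 to 4 and 5 or more *Cdkn1a* UMIs it was 35.3%, 37.7% and 38.3% in PC5, and 22.8%, 25.7% and 29.5% in PC20. In each of these groups PC5 lay above PC20. The share was also higher in thinned cells with a *Mki67* or *Top2a* UMI than in those without. It was 39.9% against 36.6% in PC5 and 25.6% against 24.8% in PC20. The mean of *Rps27l* itself was 23.2 against 22.1 UMIs in PC5, but 10.1 against 10.4 in PC20. That of *Rps27* was lower in cells with such a UMI in both, at 35.0 against 38.2 and 29.4 against 31.6. The libraries were not alike in *Mdm2*, another p53 target. Among thinned cells with no *Cdkn1a* UMI the mean of *Mdm2* was 1.5 UMIs in PC5 and 0.795 in PC20. With 1 to 4 *Cdkn1a* UMIs the means were 1.94 and 1.36, and with 5 or more they were 2.96 and 2.81. The libraries were thus closest in *Mdm2* in the last of these groups. The part of p53 was not tested.

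*Rpl22l1* had 2642 CPM in PC5 and 1637 in PC20 (log2 0.69), and its main copy *Rpl22* had 2601 and 2755 CPM (-0.08). *Rpl22* is known to bind messages of its paralog and lower their level. *Rpl22l1* made up 50.4% of the pair in PC5 (50.3% to 50.5%) and 37.3% in PC20 (37.2% to 37.4%), so that in PC5 the copies were about equal. Across *Cdkn1a* groups the share went the other way from that of *Rps27l*, at 51.4%, 50.8% and 47.9% in PC5 and 38.2%, 36.9% and 33.4% in PC20. Like that of *Rps27l*, it was higher in thinned cells with a *Mki67* or *Top2a* UMI than in those without. The values were 51.2% against 49.0% in PC5 and 37.8% against 35.9% in PC20. The coding sequences of *Rpl22l1* and *Rpl22* are 66.9% identical.

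**Figure D4:**
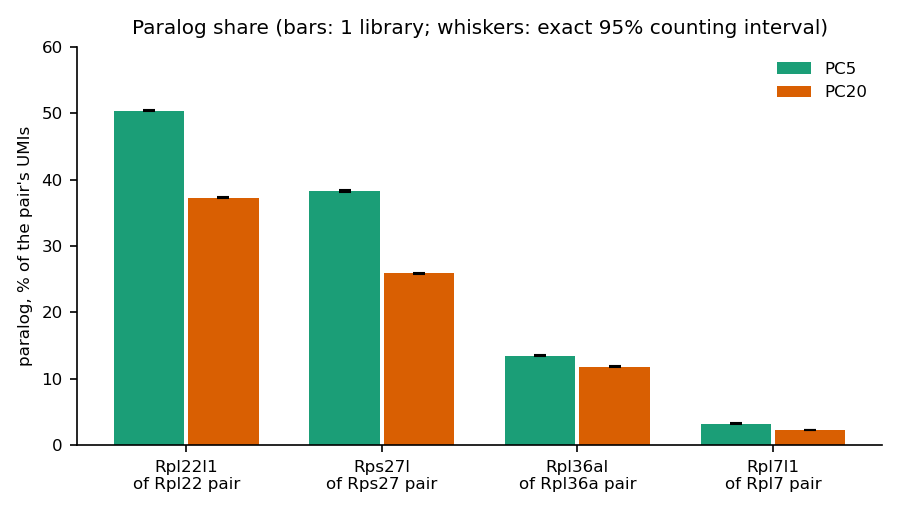
Bars give the paralog's percentage of the UMIs of its pair in PC5 and in PC20, with exact 95% counting intervals as whiskers and 1 library per bar. The shares of *Rpl22l1* (50.4% and 37.3%) and *Rps27l* (38.3% and 25.9%) differ most between the libraries, those of *Rpl36al* (13.5% and 11.8%) and *Rpl7l1* (3.21% and 2.25%) less.

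*Rpl7l1*, a paralog that takes part in making ribosomes, was the lowest of the detected members, with 49.7 CPM in PC5 and 54.6 in PC20 (log2 -0.13). Its share of the pair with *Rpl7*, whose log2 ratio was -0.67, was 3.21% and 2.25%, and the coding sequences are 53.0% identical. *Rpl36al*, whose symbol is outside the rule, had 329 and 246 CPM (log2 0.42), which was 13.5% and 11.8% of its pair with *Rpl36a*.

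The paralogs known from testis or muscle were at or near 0. *Rpl39l*, a testis paralog, was at 14 UMIs in PC5, in 0.141% of cells, and at 0 in PC20, against 1577449 and 939069 UMIs of *Rpl39*. As CPM this was 0.0628 in PC5 (0.0343 to 0.105, exact Poisson) and 0 in PC20, with an upper limit of 0.0193. No cell type that should lack it was at hand in these cultures, so its level was not told apart from free RNA. Their coding sequences, printed because 85.0% of bases are the same, differ at 23 of 153 positions, in capitals. The genes lie at chr16:10170226-10174911 on the + strand (*Rpl39l*) and chrX:37082520-37085402 on the - strand (*Rpl39*).
Rpl39: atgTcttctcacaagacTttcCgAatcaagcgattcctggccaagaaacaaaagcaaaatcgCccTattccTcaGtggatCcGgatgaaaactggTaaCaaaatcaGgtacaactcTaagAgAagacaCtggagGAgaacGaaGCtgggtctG
Rpl39l: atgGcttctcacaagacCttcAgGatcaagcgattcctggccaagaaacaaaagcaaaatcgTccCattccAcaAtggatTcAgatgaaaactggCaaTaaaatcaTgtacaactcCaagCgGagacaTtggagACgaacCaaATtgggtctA

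*Rpl3l*, a paralog of striated muscle, had 3 UMIs in each library, beside 531366 and 670587 of *Rpl3*. *Rpl10l*, of testis, had 0 UMIs in both libraries, with exact Poisson upper limits of 0.0165 CPM in PC5 and 0.0193 in PC20. As a rough bound, 3 UMIs would be 0.0302% of PC5 and 0.0632% of PC20 cells. Both are for counting error only.

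Near-identical copies can draw UMIs from a member or lend them to it, since reads that match more than 1 gene are left out of the counts. Of the detected members 13 shared a run of 90 bases near the 3' end with another listed gene, such as *Rpl10* with *Rpl10-ps3*, *Rpl9* with *Rpl9-ps6* and *Rps27* with *Rps27rt*, all of whose 3' runs were shared. The levels of these 13 are uncertain. *Rplp1*, *Rpl17*, *Rpl7a*, *Rpl27*, *Rpl35*, *Rpl36a* and *Rpl41* are the others among them described above. Their median log2 ratio was -0.07, against -0.08 for the 67 that share none, and over those 67 the Spearman correlation with coding length was -0.70. Runs were sought only in the last 300 bases of 1 annotated transcript per member. Some of the 67 may thus share runs that were not seen.

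Of 5 ribosomal proteins outside the rule for symbols 4 were higher in PC5 and 1 in PC20, with a median log2 ratio of 0.36. *Fau*, in which a ubiquitin-like protein is joined to a small subunit protein, had 4456 CPM in PC5 and 3466 in PC20 (log2 0.36). *Rack1*, a scaffold protein on the small subunit, had 1227 and 2296 CPM (-0.90). *Rps27rt* had a log2 ratio of 0.13.

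The other messages with a 5' TOP motif, which encode elongation and initiation factors and related proteins, were all higher in PC20. The 16 of them had a median log2 ratio of -0.43, 8 were below -0.5, and they summed to 20215 CPM in PC5 and 32096 in PC20. The lowest was *Npm1*, a nucleolar chaperone, with 1506 and 3653 CPM (log2 -1.28), and the nearest to 0 was *Hnrnpa1* (-0.06). *Eef1a1*, the factor that brings aminoacyl-tRNA to the ribosome, had 5326 and 8046 CPM (-0.60). Among all detected genes 32.7% were below -0.5, as given above. The median coding length of these 16 was 1101 bases, longer than most members. Detected genes outside the family with 751 or more coding bases had a median log2 ratio of -0.05, and the part of length was not tested.

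Genes for making ribosomes were also mostly higher in PC20. Of 30 such genes 24 were, with a median log2 ratio of -0.71, 18 below -0.5 and 10 below -1, against 2 above 0.5, where all detected genes had 32.7%, 19.1% and 30.2% past these limits. The lowest was *Ebna1bp2* with 18.4 and 90.9 CPM (log2 -2.31) and the highest *Bop1*, of the PeBoW complex, with 20.5 and 11.7 CPM (0.81). Nucleolin (*Ncl*) had 494 and 804 CPM (-0.70). The 11 genes of RNA polymerase I and its factors, which transcribe the ribosomal RNA precursor, were split, with 7 higher in PC5 and a median of 0.08, from *Znrd1* (-1.12) to *Rrn3* (0.97). Of 7 RNAs that host small nucleolar RNAs 2 were found by symbol, *Snhg6* (log2 -1.19) and *Snhg12* (-3.45), both higher in PC20. More PC20 cells had *Mki67* or *Top2a* UMIs, as given above, and without these cells the median was -0.90 for the biogenesis genes and -0.46 for the other 5' TOP messages. Cells without such a UMI were not shown to be outside division, and the part of division was not tested.

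**Figure D5:**
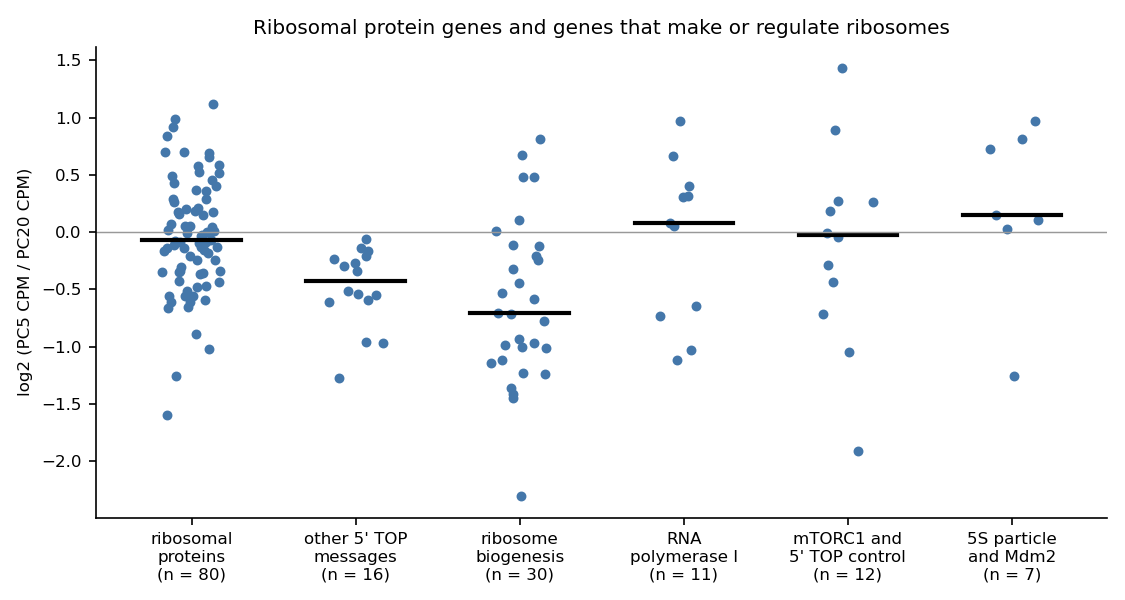
Each point is 1 detected gene, placed by the log2 ratio of its CPM in PC5 to that in PC20 (vertical axis) in the ribosomal protein family and in 5 lists of genes (horizontal axis), with the median as a black line; points are spread sideways for view. The other 5' TOP messages all lie below 0 with a median of -0.43, the biogenesis genes mostly below 0 with a median of -0.71, and the remaining lists lie on both sides.

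The genes that control 5' TOP translation through mTORC1 went both ways, 5 higher in PC5 and 7 in PC20, with a median of -0.03 that becomes 0.0082 when centred on the median gene. *Eif4ebp1*, a translation repressor that mTORC1 inactivates, had 238 and 897 CPM (log2 -1.91), and its relative *Eif4ebp2* had 89.7 and 33.3 CPM (1.43). *Larp1* had 108 and 112 CPM (-0.04), and *Myc*, a driver of ribosomal gene transcription, had 62.5 and 84.4 CPM (-0.43). Of the 7 genes listed for the 5S particle and *Mdm2*, 6 were higher in PC5. Their median log2 ratio was 0.15, where that of all detected genes was -0.03. Above 0.5 lay 3 of them, with *Bop1* of the biogenesis list among these, and 1 lay below -0.5. All detected genes had 30.2% and 32.7% past these limits. *Mdm2* had 218 and 132 CPM (0.73), *Cdkn1a* had 394 and 201 CPM (0.97) and *Trp53* had 106 and 104 CPM (0.03), while *Rpl5*, as given above, had the lowest ratio of the list.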

How the data were processed

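Single-cell libraries of cultured PCs at passage 5 and passage 20, 1 each, were grouped by passage as labelled. The deposited matrices hold whole-number UMI counts for each gene in each barcode. The authors counted them from 10x 3' libraries with Cell Ranger 5.0 and the mm10 build, per the submitters' processing notes, and applied no normalization. Of the 31053 identifiers listed, 31011 were found in GENCODE M21 (GRCm38), all 83 members among them.

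Cells were kept as in the study's methods, if they held over 1000 genes and less than 20% of their UMIs were mitochondrial. No doublets were removed and no caller was run. UMIs were summed over kept cells (223054273 in PC5, 191122251 in PC20) and given as CPM of 1000000. A gene was called detected when 10% or more of the cells of either library held a UMI of it. Ratios carry no pseudocount, and the rough bound on cells for *Rpl10l* at 0 UMIs was 3 UMIs over the number of cells. Intervals were exact at the 95% level: Poisson, Clopper-Pearson or, for ratios, conditional binomial. They cover counting error only. Thinned cells were drawn to 10500 UMIs. Spread beyond counting error was the square root of variance minus mean, over the mean.

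Coding lengths, coding sequences and 3' runs came from GENCODE M21 and start windows from RefSeq GRCm38.p6. Python 3.11.15, numpy 2.4.6, scipy 1.17.1, pandas 2.3.3, biopython 1.88 and matplotlib 3.10.9 were used, and ratios and intervals were tested on simulated libraries. The simulated libraries held counting error alone, so they tested the code and not the spread between cells or cultures. The members, gene lists and thresholds of 0.5 and 1 were chosen with earlier results of these data known, and the relation to coding length and its bins were chosen after seeing the ratios. Named genes are the members past 0.5, the 5 highest and 5 lowest by level, the 5 nearest to 0, those on either side of 0.5, the paralogs, the stalk proteins, *Rpsa*, *Rps6*, *Rpl5* and *Rpl11*, of each list the extremes, and *Myc*, *Mdm2* and *Cdkn1a*. Some items under this rule are not reported here. Others were named after their values were seen. Alternatives were other cell filters, means over cells, leaving out cells with a UMI of *Mki67* or *Top2a*, thinned cells, other library totals, centring on the median gene, and a detection minimum of 1% of cells. Adult and embryonic cells were not analysed here.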

Additional observations from a re-analysis of the deposited data

How the results depend on the processing

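No paired analysis was possible because each passage had 1 library. For the same reason no library could be left out, and what moved is judged against counting intervals, which are narrow at this depth. The number of members past 0.5 in size stayed at 25 under all 9 alternatives and that past 1 at 4 or 5, but some members changed. With the total without mitochondrial and member genes and when centred, *Rpl7a* left the first set (-0.49 and -0.48) and *Rpl27* entered it (0.50 and 0.52). When centred *Rpl12* left the second set (-0.98), which *Rpl37a* entered under these scalings (1.01 and 1.03), as a mean over cells (1.04) and thinned (1.02). The Spearman correlation of log2 ratio with coding length, an alternative set chosen after seeing the data, stayed between -0.70 and -0.67. No log2 ratio of the 38 named members moved by more than 0.094. The median of all detected genes stayed between -0.036 and 0. How the results would vary over cultures cannot be known from 1 library per passage.

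The family share moved to 33.1% in PC5 and 32.9% in PC20 with over 2000 genes and less than 10% mitochondrial UMIs per cell, 33.2% and 32.9% with all barcodes, 34.0% and 33.5% with a total without mitochondrial genes, 32.7% and 32.2% as a mean over cells, 34.0% and 33.0% in cells without *Mki67* or *Top2a* UMIs, and 32.9% and 32.3% in thinned cells. PC5 was higher in each. The median share over cells moved to 32.7% in PC5 with all barcodes, 33.9% and 32.6% without mitochondrial genes, and 33.6% and 32.7% in cells without *Mki67* or *Top2a* UMIs. The small to large ratio was 0.821 in PC5 under the stricter filter, 0.813 and 0.829 as a mean over cells, 0.814 and 0.827 without *Mki67* or *Top2a* cells, and 0.816 and 0.830 thinned. The *Rpl22l1* share was 49.8% and 36.7% as a mean over cells, 49.2% and 35.5% without *Mki67* or *Top2a* cells, and 49.8% and 37.0% thinned. The *Rps27l* share was 37.8% and 25.5%, 36.4% and 24.8%, and 37.7% and 25.3% in the same order. The members' median log2 ratio was -0.066 without mitochondrial genes in the total, -0.057 without these and the members, -0.026 without *Mki67* or *Top2a* cells, -0.052 thinned and -0.038 centred. The cause of these shifts was not tested.

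Values near 0 changed sign. *Rps2* was -0.023 as a mean over cells and *Rps24* -0.00036 under the stricter filter. With the total without mitochondrial and member genes, without *Mki67* or *Top2a* cells, thinned and centred, *Rps3a1* was 0.0073, 0.014, 0.020 and 0.026. The mTORC1 list had a median of 0.0082 when centred.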
